A study of Homo sapiens with 15 samples.

Results

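Saracatinib was compared with vehicle in A375 cells that overexpress VAV1, in 3 libraries against 3, which are 6 of the 15 libraries of the study. The members are those 6 libraries, chosen by their titles, and the 14034 genes that reached 10 normalized counts in 3 or more of them, out of 16768 gene symbols listed. A375 is a long-established melanoma line of human origin whose BRAF is mutant. The saracatinib group carried VAV1 overexpression and received saracatinib, and its control carried the same VAV1 overexpression and received vehicle. A further 3 libraries with an empty vector and vehicle entered the model for its estimate of spread and are given beside the comparison as levels. The labels give neither the dose nor the time of treatment, and the design text states biological triplicates. No empty vector library received the inhibitor, so an effect of saracatinib on A375 cells in general and an effect that needs VAV1 cannot be told apart here. The expression vector, its promoter and the number of clones are not given in the sources used here.

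VAV1 is a guanine nucleotide exchange factor, normally of blood cells, that loads RAC and related GTPases with GTP and is switched on when SRC family kinases phosphorylate it. Saracatinib is an ATP-competitive inhibitor of SRC family kinases and of ABL. SRC kinases act at focal adhesions, where they phosphorylate scaffold proteins that couple integrins to the actin cytoskeleton, and actin tension in turn controls the coactivators YAP and TAZ, which bind DNA through TEAD factors.

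The 9 libraries of the fit summed to between 14443918 and 14896129 normalized counts. Pearson correlations of the log2 values lay between 0.983 and 0.987 within a group and between 0.965 and 0.967 between the vehicle and the saracatinib libraries of VAV1 cells. The first principal component of the 6 libraries held 56.5% of the variance and separated the treatments, and the next held 13.2%, with saracatinib library 3 at -29.1 and the other saracatinib libraries at 16.8 and 12.8. Of the melanoma markers, SOX10 had 1748 to 1837 normalized counts with vehicle, while PMEL, MLANA and TYRP1 stayed at or below 26.5 in every VAV1 library. None of 7 haematopoietic markers passed the filter on low values, and the 5 that were listed summed to 6.22 to 20.4 with vehicle and 7.87 to 15.2 with saracatinib. Of 3 tested epithelial markers, KRT8 and KRT18 fell by 0.66 and 0.71 and KRT14 did not pass, and the list summed to 12990 to 13970 with vehicle and 8035 to 8434 with saracatinib. The fibroblast list summed to 431 to 506 and 400 to 462, and the endothelial list to 42.3 to 82.2 and 77.2 to 116. What part these markers have in the results was not tested. RNA came from whole cultures, so fewer cells that express a gene and less RNA of it per cell cannot be told apart in any result.

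Saracatinib changed 5385 of the 14034 genes at a limma adjusted p under 0.05, which is 38.4%. Higher levels were called for 2624 genes (18.7%) and lower levels for 2761 (19.7%), and the median log2 fold change over all tested genes was -0.01. A difference of 2-fold or more was fitted for 524 of the higher genes (3.73% of those tested) and 203 of the lower ones (1.45%). The median size of change was 0.53 on the log2 scale for the genes that rose and 0.39 for the genes that fell. The libraries of both treatments did not overlap for 50.2% of tested genes. A test against a 1.5-fold difference called 367 genes higher and 124 lower. Fold changes here are on the log2(normalized count + 1) scale, so those of low genes come out too small, and errors after ± are SE.

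**Figure D1:**
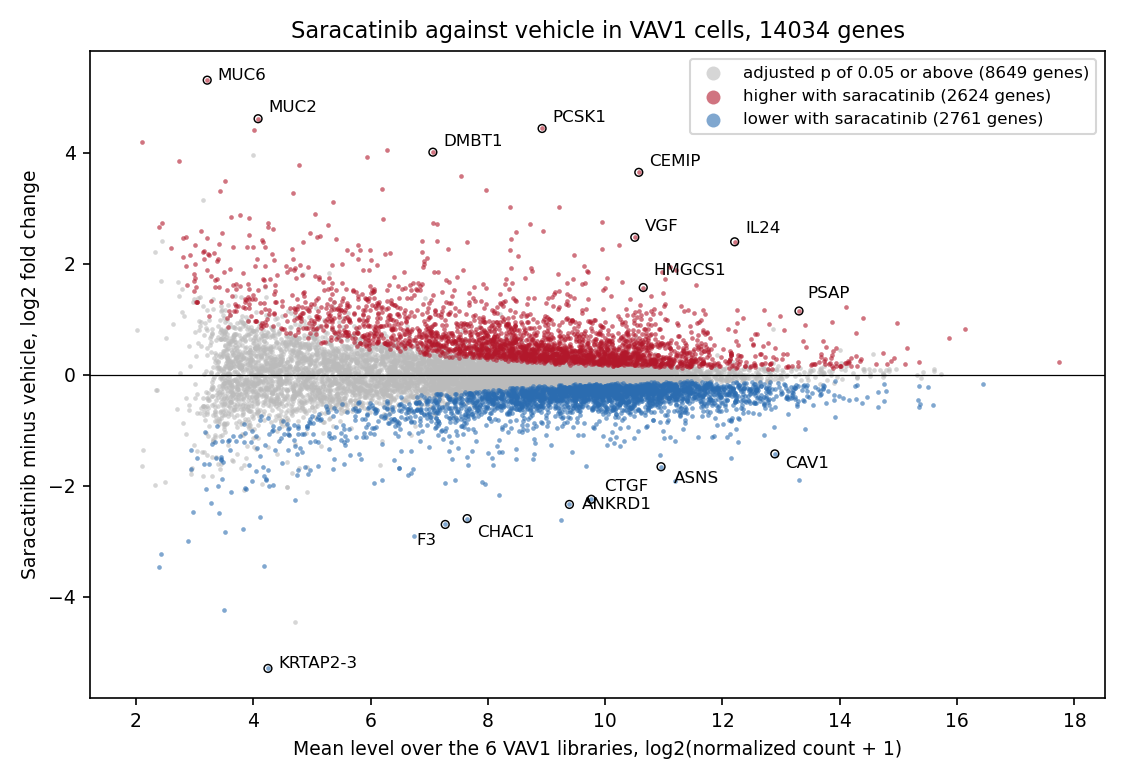
Log2 fold change of saracatinib against vehicle (vertical axis) against the mean log2(normalized count + 1) of the 6 VAV1 libraries (horizontal axis), 1 point per tested gene. The 2624 higher genes are red, the 2761 lower genes blue and the rest grey, and ringed genes are named in the text.

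The VAV1 transgene itself was measured at 15580, 14840 and 15690 normalized counts in the vehicle libraries and at 17600, 18350 and 17660 with saracatinib. These groups did not overlap, but the difference of 0.22 ± 0.11 missed the threshold (limma adjusted p = 0.149). In the empty vector libraries VAV1 was at 2.74 to 4.62. All 6 treated and control libraries thus held the transcript of the exchange factor at a high level. The gene lies on chromosome 19 (6772714 to 6857366, plus strand, GRCh38).

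SRC, the kinase for which the inhibitor is named, rose at the RNA level. Its normalized counts were 1010, 987 and 904 with vehicle and 1306, 1260 and 1365 with saracatinib, a log2 fold change of 0.44 ± 0.06 (limma adjusted p = 7.22e-05). Every saracatinib library lay above every vehicle library. SRC lies on chromosome 20 (37344685 to 37406050, plus strand). LYN fell from 404 to 455 with vehicle to 340 to 354 with saracatinib (-0.32 ± 0.09, limma adjusted p = 0.0105). FYN was at 418, 436 and 428 with vehicle and 282, 383 and 321 with saracatinib (-0.39 ± 0.12, limma adjusted p = 0.0183). Its call was lost without vehicle library 2 (-0.37, limma adjusted p = 0.053) and without saracatinib library 1 (-0.28, limma adjusted p = 0.0842). YES1 (-0.09 ± 0.06) and FRK (-0.09 ± 0.14) did not pass, and LCK and BLK were too low to test.

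Among the proteins that set SRC activity, 2 of 8 tested rose and 4 fell, against 18.7% and 19.7% of all genes. CSK, the kinase that phosphorylates the inhibitory tail of SRC, had 2135 to 2178 normalized counts with vehicle and 1447 to 1504 with saracatinib, a fall of 0.55 on the log2 scale (limma adjusted p = 3.69e-06). PTPRA, a phosphatase that removes that tail phosphate, rose by 0.38 ± 0.08. CBLB, a ubiquitin ligase that acts on active tyrosine kinases, rose by 0.76 ± 0.20. RAC1, the GTPase that VAV1 loads, fell from 5234 to 5456 with vehicle to 4076 to 4418 with saracatinib (-0.33 ± 0.05, limma adjusted p = 7.38e-05).

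Genes of RAC, its related GTPases and their effectors went both ways, with 4 of 25 tested members higher and 7 lower, against 18.7% and 19.7% of all genes. RHOB, a short-lived small GTPase, rose by 0.49, while RHOA fell by 0.37. The count of lower members was 4 without saracatinib library 1.

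The genes with the largest rises follow. PCSK1, the convertase that cleaves prohormones, was at 131, 87.4 and 96.8 normalized counts with vehicle and 2231, 2301 and 2251 with saracatinib. It rose by 4.44 ± 0.13 on the log2 scale (limma adjusted p = 7.75e-11), and the empty vector libraries held 277 to 347. PCSK1 lies on chromosome 5 (96390415 to 96434143, minus strand).

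CEMIP, which takes part in hyaluronan breakdown, went from 450, 449 and 393 to 5336, 5006 and 5864 normalized counts (3.65 ± 0.07, limma adjusted p = 3.76e-12). Its level in the empty vector libraries was 2791 to 3202, between both VAV1 groups. CEMIP lies on chromosome 15 (80779343 to 80951776, plus strand). DMBT1, a scavenger receptor protein of mucosal surfaces, went from 28.98, 35.99 and 32.32 to 553, 531 and 523 (4.01 ± 0.18, limma adjusted p = 2.05e-09). For DMBT1 the empty vector libraries, at 23.5 to 35.3, lay with the vehicle libraries of VAV1 cells. The gene is on chromosome 10 (122560665 to 122643736, plus strand).

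The neighbouring mucin genes MUC6 and MUC2 on chromosome 11 were nearly silent with vehicle. MUC6 was at 1.21, 0.456 and 0 with vehicle and 93.3, 32.5 and 62.2 with saracatinib. MUC2 was at 1.02, 2.71 and 4.37 with vehicle and 108, 77.6 and 67.7 with saracatinib. Their fitted log2 changes of 5.31 ± 0.90 and 4.61 ± 0.44 rest on near-zero vehicle levels and depend on the added count of 1.

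STC1, a secreted glycoprotein hormone, rose from 203 to 210 to 1627 to 1832 normalized counts (3.03 ± 0.09). HTRA1, a secreted serine protease, rose from 71.2 to 83.7 to 767 to 806 (3.32 ± 0.10). A2M, a plasma protease inhibitor, rose by 4.04 ± 0.24, CITED1, a transcriptional coregulator, by 3.78 ± 0.31, and ST8SIA4, a polysialyltransferase, by 3.02 ± 0.14. The ferritin receptor gene SCARA5 and the ion exchanger gene SLC24A3 rose by 3.34 and 3.11. The amino acid transporter gene SLC6A20 was at 9.66, 46.9 and 6.69 with vehicle and 272, 253 and 199.8 with saracatinib (3.93 ± 0.80), and at 4.73 on the log2 scale without vehicle library 2, its highest vehicle library. Vehicle and saracatinib libraries overlapped for none of these 8 genes. HIST2H2AA4 met the naming rule too, but it has a near-identical copy whose reads cannot be told from its own, and its call was lost without saracatinib library 1 (2.98, limma adjusted p = 0.0685). Its log2 change was 1.76 without vehicle library 3, 4.09 without vehicle library 1 and 4.0 without vehicle library 2.

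The deepest falls began with KRTAP2-3, a hair keratin-associated protein gene, at 126, 116 and 113 normalized counts with vehicle and 0.923, 3.58 and 2.19 with saracatinib (-5.29 ± 0.46, limma adjusted p = 1.03e-06). Its empty vector level was 2.19 to 9.09. The size of this fall rests on near-zero saracatinib levels and depends on the added count of 1. HHIP, a decoy that binds hedgehog ligands, was at 51.6 to 65.9 with vehicle and 3.65 to 5.48 with saracatinib (-3.44 ± 0.42). ESM1, a proteoglycan of endothelial cells, fell from 1465 to 1531 to 211 to 271 (-2.61 ± 0.10), and MARCH4, a membrane ubiquitin ligase, from 573 to 649 to 126 to 144 (-2.17 ± 0.27). DOCK2, an exchange factor for RAC, fell from 459 to 535 to 117 to 133 (-1.97 ± 0.23), and CDC42EP1, a CDC42 effector, from 291 to 316 to 68.0 to 89.6 (-1.96 ± 0.15). In these 6 genes the vehicle libraries of VAV1 cells were the highest of the 3 groups, and the saracatinib libraries lay above the empty vector libraries for ESM1, MARCH4 and DOCK2.

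**Figure D2:**
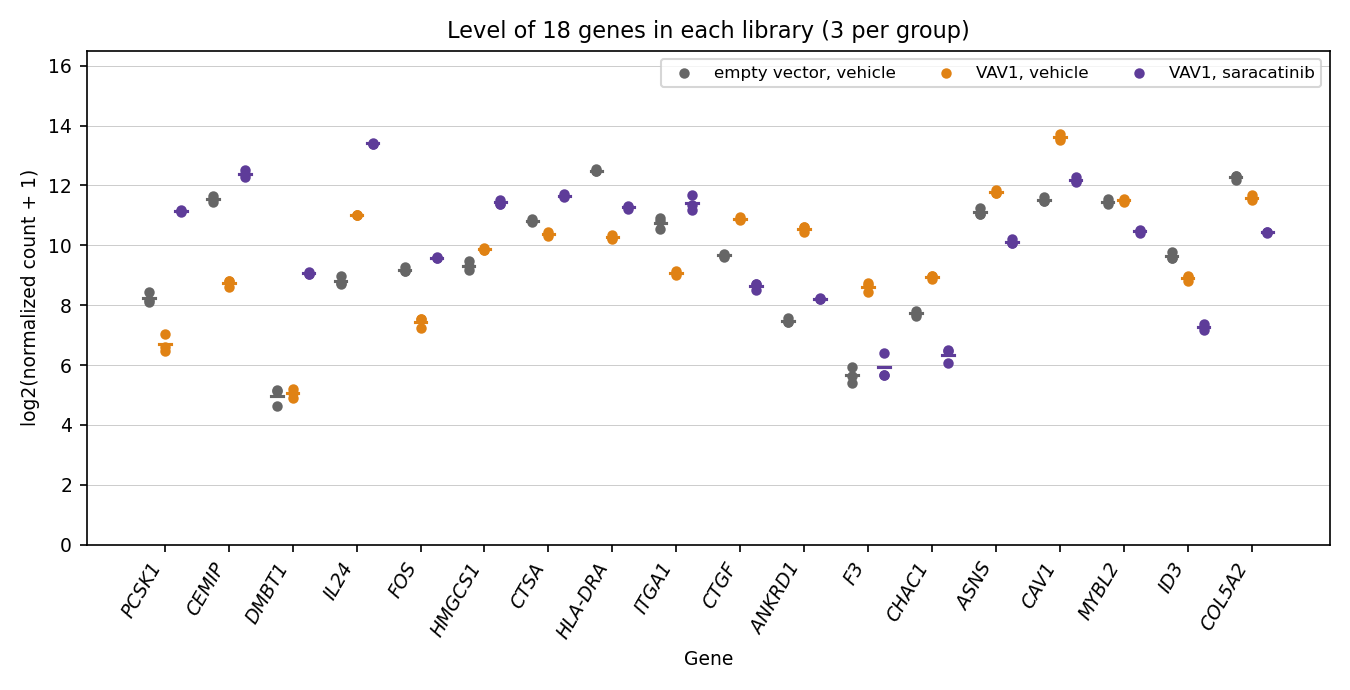
Log2(normalized count + 1) of 18 genes (horizontal axis) in each of the 9 libraries, with short bars at the mean of 3 libraries: empty vector with vehicle in grey, VAV1 with vehicle in orange, VAV1 with saracatinib in purple. Orange and purple points do not overlap for any of the 18 genes. Levels of different genes are not comparable, since the counts are not per length.

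YAP and TEAD target genes fell. Of 24 tested members of this list, 18 were lower and 3 higher, and the median log2 fold change was -0.82 against -0.01 over all genes. CTGF (also named CCN2), a matricellular protein and the standard readout of YAP, was at 1870, 1963 and 1840 normalized counts with vehicle and 415, 365 and 416 with saracatinib (-2.25 ± 0.07, limma adjusted p = 7.75e-11). CYR61 (CCN1), its close relative, fell from 4524, 4739 and 4409 to 1161, 1235 and 1228 (-1.91 ± 0.05, limma adjusted p = 4.60e-11). For both genes the saracatinib libraries also lay below the empty vector libraries, at 789 to 842 for CTGF and 1422 to 1559 for CYR61.

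ANKRD1, a nuclear ankyrin repeat protein, was at 1573, 1382 and 1579 with vehicle and 296, 295 and 301 with saracatinib (-2.34 ± 0.08, limma adjusted p = 2.42e-10). F3, which encodes tissue factor, was at 429, 408 and 348 with vehicle and 50.2, 84.3 and 50.3 with saracatinib (-2.70 ± 0.21, limma adjusted p = 3.97e-07). Here the saracatinib level stayed above the empty vector level for ANKRD1 (172 to 190), while it overlapped the empty vector level for F3 (41.7 to 59.9). AXL, a receptor tyrosine kinase, fell from 9636 to 9965 to 4564 to 4669 (-1.08 ± 0.05). AMOTL2 and AJUBA, junctional proteins that feed back on the pathway, fell by 0.88 and 0.82. NT5E, an ectonucleotidase, and IGFBP3, a binding protein of insulin-like growth factors, are on the list and rose, NT5E from 955 to 1024 to 2324 to 2423 normalized counts and IGFBP3 by 0.89 ± 0.07 on the log2 scale.

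The factors themselves moved less. YAP1 had a log2 fold change of -0.01 ± 0.07 (limma adjusted p = 0.938), and WWTR1, which encodes TAZ, rose from 4824 to 5009 to 6846 to 7346 normalized counts (0.53 ± 0.04, limma adjusted p = 2.66e-07). TEAD4 fell by 0.77 ± 0.08, and the upstream Hippo components NF2 and SAV1 fell by 0.69 and 0.58.

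The core TEAD letters were searched in promoters because this list moved together. GGAATG, read on either strand in the 250 bases before any RefSeq start (GRCh38.p14), was present in 13.4% of 10846 tested genes with a window and in 11.9% of all 35116 windows. Of 20 list members with a window, 10 held it, and 9 of these 10 fell and 0 rose. The list is one of target genes, and 18 of its 24 tested members were lower, so these counts are not a separate result. Of all 1450 tested genes that held it, 21.9% fell and 20.0% rose, near the shares of all genes tested, with or without a window. CTGF held 3 matches and ANKRD1 held 2, the first at 169 and 220 bases before the start. The stretches below run 5′ to 3′ on the gene's strand, with the matches in capitals, and ANKRD1 is shown around the more distant match only. CTGF is at chr6:131951432-131951571 (minus strand) and ANKRD1 at chr10:90921290-90921319 (minus strand).
CTGF: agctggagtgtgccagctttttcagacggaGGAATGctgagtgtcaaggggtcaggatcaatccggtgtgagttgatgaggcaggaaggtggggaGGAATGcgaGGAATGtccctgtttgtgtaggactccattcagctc
ANKRD1: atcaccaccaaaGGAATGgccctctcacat

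Caveolar and focal adhesion genes, many of whose proteins are SRC substrates, went down without exception among those called: 12 of 24 tested were lower and 0 higher (1 with quantile normalization), with a median of -0.32. CAV1, the caveolar coat protein first described as a SRC substrate, was at 11650, 12380 and 13450 normalized counts with vehicle and 4549, 4442 and 4933 with saracatinib (-1.43 ± 0.06, limma adjusted p = 8.88e-10). All saracatinib values were below all vehicle values and above the 2855 to 3119 of the empty vector libraries. CAV2 fell by 0.75 ± 0.11, and PXN (paxillin), PTK2 (focal adhesion kinase) and FLNA (filamin A) fell by 0.32, 0.34 and 0.50. CTTN, which encodes the SRC substrate cortactin, had 3875 to 4036 with vehicle and 3997 to 4016 with saracatinib and did not pass.

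Actin and SRF target genes followed, with 12 of 22 tested lower and 1 higher. That is 54.5% and 4.55%, against 19.7% and 18.7% of all genes. ACTB, cytoplasmic actin, fell from 50280 to 51970 to 33070 to 34630 normalized counts (-0.58 ± 0.04, limma adjusted p = 1.70e-07). TAGLN, an actin bundling protein, fell from 130 to 149 to 33.1 to 41.4 (-1.91 ± 0.25). MYH9 (non-muscle myosin), TPM1 (tropomyosin) and CNN2 (calponin) fell by 0.62, 0.94 and 0.61. SRF itself had a log2 fold change of -0.09 ± 0.06, and ACTA2, smooth muscle actin, of 0.27 ± 0.14, and neither passed. The count of higher members was 0 without vehicle library 1 and 0 without saracatinib library 2.

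Genes of the amino acid response fell. ATF4 is a transcription factor made when amino acids are short or the endoplasmic reticulum is stressed, and it drives genes for amino acid synthesis, uptake and tRNA charging. ATF4 RNA was at 8365, 7606 and 8108 normalized counts with vehicle and 4764, 5293 and 4744 with saracatinib (-0.70 ± 0.05, limma adjusted p = 3.32e-07). Of 17 tested pathway regulators, 10 were lower and 2 higher. CHAC1, which degrades glutathione, was at 468, 503 and 503 with vehicle and 90.3, 86.8 and 66.7 with saracatinib (-2.59 ± 0.13, limma adjusted p = 4.29e-09). Its empty vector level was 199 to 224, between both VAV1 groups.

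JDP2 and STC2 fell by 1.78 and 1.42, and TRIB3 and CEBPG by 0.67 and 0.87. DDIT3, which encodes the stress factor CHOP, was at 298 to 356 with vehicle and 261 to 319 with saracatinib and did not pass (limma adjusted p = 0.294). EIF2AK3, the kinase PERK, and DDIT4 rose by 0.73 and 0.45.

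Enzymes of amino acid and one-carbon synthesis had a median of -0.98, with 16 of 19 tested lower and 0 higher. The serine branch fell at each step measured: PHGDH by 1.12 and PSPH by 0.93 on the log2 scale, and PSAT1, between them, 2.84-fold. PSAT1 was at 7851, 7313 and 7655 normalized counts with vehicle and 2737, 2717 and 2588 with saracatinib (limma adjusted p = 6.79e-11). The mitochondrial folate enzymes SHMT2, MTHFD2, MTHFD1L and ALDH1L2 fell by 0.80, 1.21, 1.11 and 1.51, while the cytosolic SHMT1 had a log2 fold change of 0.11 and did not pass.

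ASNS, asparagine synthetase, fell from 3431, 3416 and 3724 to 1186, 1069 and 1092 normalized counts (-1.66 ± 0.07, limma adjusted p = 6.97e-10). CBS, the entry of transsulfuration, fell from 439 to 484 to 111 to 133 (-1.93 ± 0.11). PYCR1, the last step of proline synthesis, fell by 1.28. Saracatinib levels of ASNS, PSAT1, PHGDH, CBS and PYCR1 were below the empty vector libraries as well, as the counts of 2104 to 2443 for ASNS and 3826 to 4070 for PSAT1 show.

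Among 15 amino acid transporters, 8 fell and 2 rose (1 without vehicle library 1 or without saracatinib library 3). The 8 and 2 are 53.3% and 13.3%, against 19.7% and 18.7% of all genes. SLC1A5, the glutamine carrier ASCT2, fell from 6351 to 6508 to 3019 to 3220 normalized counts (-1.06 ± 0.04, limma adjusted p = 4.55e-10). SLC7A5, the large neutral amino acid carrier LAT1, and SLC3A2, its heavy chain, fell by 0.77 and 0.61, and the cystine carrier SLC7A11 fell by 0.61. Of 20 cytosolic aminoacyl-tRNA synthetases, 16 fell and 1 rose, with a median of -0.49. YARS, GARS and MARS fell by 0.91, 0.82 and 0.82. The exception, QARS, rose by 0.20, and this call was lost without saracatinib library 2 (0.16, limma adjusted p = 0.0543).

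The composite element bound by ATF4 with C/EBP factors was searched as TGATGNAA on either strand. It was present in 2.43% of tested genes with a window and 3.14% of all windows. It was found in 4 of 15 pathway regulators, 4 of 14 amino acid enzymes and 3 of 15 synthetases with a window, and all of these fell. Of all tested members of these lists, 10 of 17, 16 of 19 and 16 of 20 were lower, so these falls are not a separate result. Of all 264 tested genes that held the element, these list members among them, 25% fell and 17.4% rose. The matches of 4 of them are shown in capitals, 5′ to 3′ on the gene's strand, with TTGCATCA being the reverse complement. CHAC1 is at chr15:40953251-40953280 (plus strand), ASNS at chr7:97872458-97872487 (minus), AARS at chr16:70289675-70289704 (minus) and IARS at chr9:92293698-92293721 (minus). AARS and IARS, the alanine and isoleucine synthetases, fell by 0.67 and 0.69.
CHAC1: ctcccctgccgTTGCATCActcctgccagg
ASNS: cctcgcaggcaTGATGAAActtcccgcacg
AARS: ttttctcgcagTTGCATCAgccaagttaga
IARS: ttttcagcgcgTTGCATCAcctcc

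**Figure D3:**
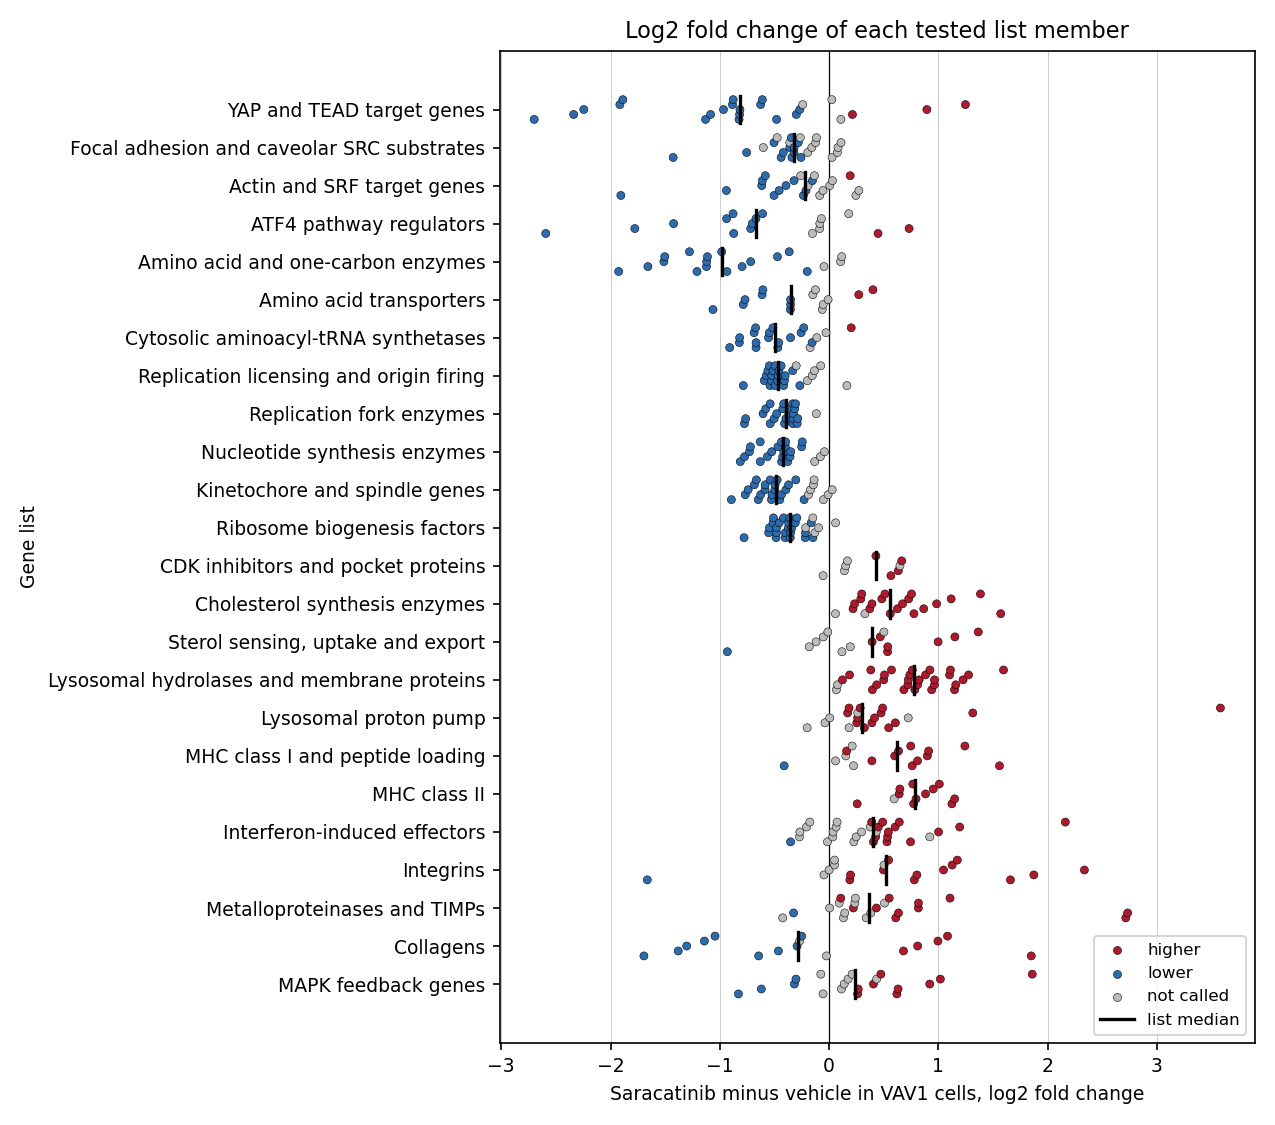
Log2 fold change of saracatinib against vehicle (horizontal axis) for every tested member of 24 gene lists (vertical axis), 1 point per gene, with a black bar at the list median. Red points are higher and blue points lower at a limma adjusted p under 0.05, and grey points did not pass.

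Cholesterol synthesis genes rose. The pathway turns acetyl-CoA through mevalonate and squalene into cholesterol, and its genes are driven by SREBP2 when sterols in the endoplasmic reticulum run low. Of 21 enzymes tested, 19 rose and 0 fell, with a median of 0.56. HMGCS1, which makes HMG-CoA, was at 913, 972 and 909 normalized counts with vehicle and 2946, 2690 and 2674 with saracatinib (1.57 ± 0.08, limma adjusted p = 3.55e-09). The groups did not overlap, and the saracatinib libraries also lay above the empty vector libraries, at 576 to 706.

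The late sterol enzyme MSMO1 rose from 422 to 460 to 1120 to 1176 (1.38 ± 0.08), and IDI1, which isomerises isopentenyl diphosphate, by 0.98 ± 0.07. PMVK (0.06) and TM7SF2 (0.33) did not pass. INSIG1, the sterol-sensing brake on SREBP release and itself a target gene, rose from 855, 885 and 823 to 2267, 2171 and 2166 (1.36 ± 0.06, limma adjusted p = 9.43e-10). NPC1 and STARD4, which move cholesterol out of lysosomes and between membranes, rose too, NPC1 by 1.15 on the log2 scale and STARD4 from 292 to 320 to 606 to 627 normalized counts.

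SREBF2, the gene of SREBP2, rose by 0.54 ± 0.05 and SREBF1 did not pass (-0.05 ± 0.07). ABCG1, a sterol exporter under liver X receptors, fell by 0.93 ± 0.22. Of 12 fatty acid synthesis enzymes, 4 were higher and 3 lower, which is 33.3% and 25% against 18.7% and 19.7% of all genes, and other scalings gave up to 6 higher and as few as 2 lower. ACSS2, which makes acetyl-CoA from acetate, rose from 186 to 257 to 672 to 771 (1.74 ± 0.11), while ACLY (-0.00) and SCD (0.09) did not pass. The letters TCACNCCAC of a sterol regulatory element were in 0 of 16 cholesterol enzymes with a window, against 1.21% of tested genes, and in 1 of 13 other sterol genes, SREBF2.

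Lysosomal genes rose. Of 30 hydrolases and membrane proteins of the lysosome, 28 were higher and 0 lower, with a median of 0.77. PSAP, the precursor of the saposins that help degrade sphingolipids, was at 6759, 6798 and 6828 normalized counts with vehicle and 15060, 15290 and 14830 with saracatinib (1.15 ± 0.04, limma adjusted p = 7.75e-11). CTSA, the protective protein of a hydrolase complex, went from 1277, 1397 and 1330 to 3203, 3161 and 3331 (1.28 ± 0.05, limma adjusted p = 8.02e-10), and NEU1, the sialidase of that complex, rose by 1.23 ± 0.08. For these 3 genes the saracatinib libraries also exceeded the empty vector libraries.

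The protease gene CTSK rose from 62.9 to 66.7 to 176 to 222 normalized counts. On the log2 scale the protease gene CTSD rose by 1.10, the ceramidase ASAH1 by 1.11, and CD63, a tetraspanin of late endosomes, by 1.16. GLA and MCOLN1 had log2 fold changes of 0.07 and 0.08 and did not pass. The subunits of the proton pump that acidifies lysosomes rose too, with 14 of 20 tested higher, 0 lower and a median of 0.30. That count was 9 without vehicle library 2 and 9 without saracatinib library 1. ATP6V0A4, a subunit known from kidney, was the exception in size, at 51.6, 55.4 and 51.3 with vehicle and 679, 626 and 623 with saracatinib (3.58 ± 0.13, limma adjusted p = 1.94e-10).

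**Figure D4:**
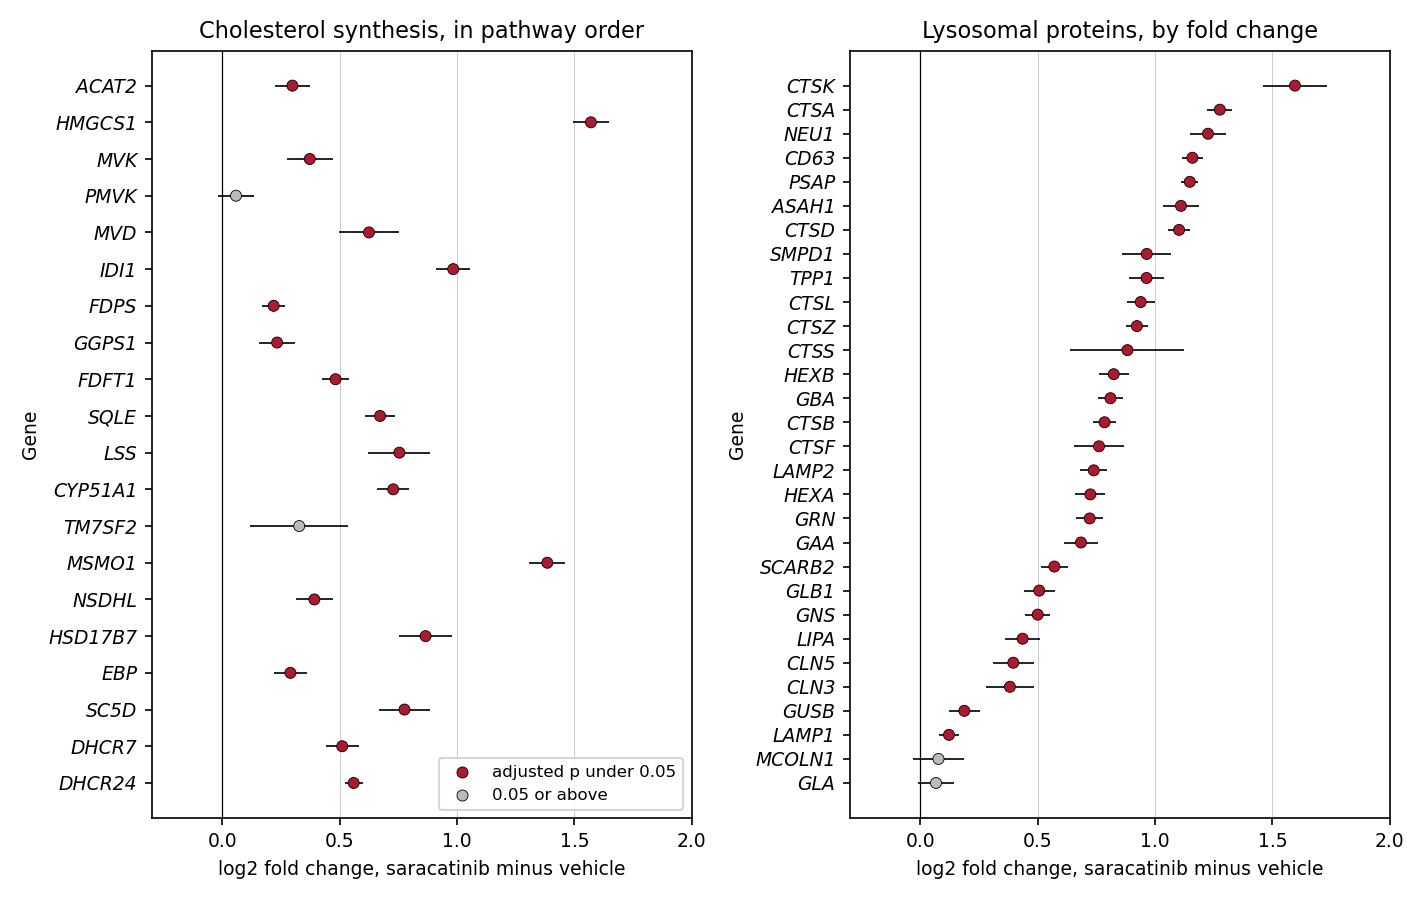
Log2 fold change of saracatinib against vehicle (horizontal axes) with SE bars for 20 of the 21 tested cholesterol synthesis enzymes in pathway order (left) and 30 lysosomal genes by size (right). Red points passed a limma adjusted p under 0.05, which were 18 and 28 of the genes shown, and grey points did not.

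The palindrome TCACGTGA is the core of the element that the lysosomal regulators TFEB, TFE3 and MITF bind. It was present in 1.99% of tested genes with a window and in 0.854% of all windows, and in 4 of 19 lysosomal and 2 of 14 proton pump genes. Of these 6, 5 rose and 0 fell. In the 2 lists 28 of 30 and 14 of 20 tested members rose, so these rises are not a separate result. Of all 216 tested genes that held the palindrome, 23.1% rose and 17.6% fell. Among the 5 list members that held it and rose, LAMP1 rose by only 0.12 and ATP6V0D1 by only 0.17. Their calls were lost in most fits that left out a library, up to limma adjusted p = 0.142 and 0.192. The stretches of 3 of them are shown 5′ to 3′ on the plus strand with the first match in capitals, at chr20:45891298-45891327 for CTSA, chr17:80101493-80101522 for GAA (acid alpha-glucosidase, 2 matches in its window) and chr9:114587699-114587728 for ATP6V1G1 (a pump subunit). GAA rose by 0.68 and ATP6V1G1 by 0.26. Of these 3 regulators, TFE3 fell by 0.33 ± 0.06, MITF fell by 1.09 ± 0.11 and TFEB, at 16.6 to 29.2 with vehicle and 23.0 to 67.1 with saracatinib, did not pass.
CTSA: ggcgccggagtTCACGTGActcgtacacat
GAA: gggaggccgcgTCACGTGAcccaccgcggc
ATP6V1G1: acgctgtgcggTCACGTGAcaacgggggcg

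Most genes of DNA replication and mitosis fell. Lower levels were called for 20 of 26 licensing and origin-firing genes, 22 of 23 fork enzymes, 20 of 23 nucleotide synthesis enzymes and 21 of 28 kinetochore and spindle genes, and higher levels for 0 in each list (1 licensing gene without vehicle library 3). The medians of these 4 lists were -0.46, -0.40, -0.42 and -0.49. CDT1, which loads the MCM helicase, was at 934, 914 and 827 with vehicle and 500, 472 and 583 with saracatinib (-0.79 ± 0.10, limma adjusted p = 2.83e-05). RRM2, the regulated subunit of ribonucleotide reductase, went from 6078, 6045 and 5840 to 3603, 3564 and 3343 (-0.77 ± 0.04, limma adjusted p = 1.92e-08). In both genes every saracatinib value was also below the empty vector values of 719 to 891 and 4936 to 5240.

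MCM2 and MCM7, helicase subunits, fell by 0.56 and 0.59, POLE, the leading-strand polymerase, by 0.78, and CAD, which starts pyrimidine synthesis, by 0.81. CDC20, the activator of the anaphase-promoting complex, and TPX2, a spindle assembly factor, fell by 0.89 and 0.74.

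Of 21 cyclins, CDKs and cell cycle factors, 13 fell and 1 rose. MYBL2, which activates late cell cycle genes, fell from 2810 to 2987 to 1371 to 1473 normalized counts (-1.02 ± 0.05, limma adjusted p = 6.95e-09). FOXM1, its partner in mitotic genes, fell by 0.74, CDK6 by 0.86 and E2F1 by 0.46. The cyclin D1 gene CCND1 was at 5290 to 5473 with vehicle and 5004 to 5260 with saracatinib and did not pass (limma adjusted p = 0.463), and CDC25B, a phosphatase that activates CDKs, rose by 0.29. Among CDK inhibitors, CDKN1A (p21) rose by 0.66 ± 0.06, CDKN2C (p18) by 0.63 ± 0.08 and CDKN1B (p27) by 0.43 ± 0.07. Ribosome biogenesis factors shared the fall, with 24 of 29 lower, 0 higher and a median of -0.36. NOP56, a core protein of box C/D particles, fell by 0.78 ± 0.04. MYC, which drives many of these genes, fell from 422 to 465 to 230 to 270 (-0.83 ± 0.10, limma adjusted p = 1.67e-05), and its antagonists MXD1 and MXD4 rose by 0.80 and 0.89.

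E2F elements were searched as TTTCCCGC, TTTGGCGC, TTTCGCGC and TTTGCCGC on either strand. At least 1 was in 5.51% of tested genes with a window and 2.79% of all windows. Of the 598 genes that held it, 29.4% fell, against 19.7% of all genes tested, with or without a window. It was in 8 of 23 licensing genes, of which 6 fell, and in 6 of 19 fork enzymes, which all fell. Of all tested members, 20 of 26 licensing genes and 22 of 23 fork enzymes fell, so these falls are not a separate result. The matches of 3 are shown in capitals 5′ to 3′ on the gene's strand, with GCGGGAAA and GCGCCAAA being reverse complements. CDT1 is at chr16:88803743-88803772 (plus strand), POLE at chr12:132687343-132687371 (minus) and LIG1, the ligase of the lagging strand, at chr19:48170440-48170469 (minus), and LIG1 fell by 0.60.
CDT1: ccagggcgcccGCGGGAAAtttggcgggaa
POLE: tgggtgggagcGCGCCAAAtttctcccct
LIG1: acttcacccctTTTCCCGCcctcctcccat

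Antigen presentation genes rose. Of 12 tested genes of the MHC class II pathway, which loads peptides from endosomes, 11 rose and 0 fell, with a median of 0.78. HLA-DRA was at 1293, 1181 and 1210 normalized counts with vehicle and 2383, 2460 and 2570 with saracatinib (1.01 ± 0.05, limma adjusted p = 5.68e-09). These groups did not overlap, and both lay below the empty vector libraries at 5681 to 5987. HLA-DMA and HLA-DMB, the peptide exchange factor, rose by 1.12 and 1.15. CIITA, the master regulator of class II, rose from 220 to 354 to 415 to 488 (0.65 ± 0.14), and CD74, the invariant chain, by 0.64 ± 0.05.

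In the class I list 11 of 16 rose and 1 fell. B2M, the light chain, went from 8469, 7363 and 7985 to 14090, 15170 and 15110 (0.90 ± 0.06, limma adjusted p = 9.37e-08), and HLA-B from 566 to 627 to 1708 to 1829 (1.56 ± 0.06). The peptide transporter subunits parted, TAP1 rising by 0.75 and TAP2 falling by 0.41. HLA genes are similar enough that the quantification may have shared reads between them, so the values of single HLA genes are uncertain.

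Interferon-induced effectors changed in part: 14 of 30 tested rose and 1 fell (46.7% and 3.33%, against 18.7% and 19.7% of all genes). ISG20, an exonuclease, was at 361, 331 and 314 with vehicle and 1435, 1576 and 1495 with saracatinib (2.16 ± 0.08, limma adjusted p = 4.24e-10), overlapping the 1272 to 1546 of the empty vector libraries. IFI35 rose from 350 to 414 to 707 to 809, BST2 (tetherin) rose by 1.20 on the log2 scale, and OAS3, an oligoadenylate synthetase, fell by 0.35. MX1 (-0.27) and IFI44L (-0.27), which are among the usual readouts of type I interferon, did not pass. Others of the list were called higher, with IFIT1 up by 0.60, ISG15 by 0.49 and IFIT3 by 0.45. The IFIT1 call was lost without vehicle library 1, saracatinib library 2 or saracatinib library 3 (limma adjusted p = 0.0744, 0.063 and 0.0541). That of ISG15 was lost without vehicle library 1 or 2 (limma adjusted p = 0.0586 and 0.0901). It was also lost without saracatinib library 1 or 2 (limma adjusted p = 0.0538 and 0.0959). Of the receptors and factors, 6 of 17 rose (35.3%) and 0 fell (1 without vehicle library 1). IRF9 was at 84.4 to 101 with vehicle and 173 to 245 with saracatinib (1.17 ± 0.15), and STAT2 rose by 0.50.

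The interferon-stimulated response element was searched as GAAA, any pair of bases and GAAA again, on either strand. It was in 18 of 24 effectors with a window, of which 10 rose and 1 fell, and in 3.39% of tested genes and 3.02% of all windows. Since 14 of all 30 tested effectors rose, the rises of these 10 are not a separate result. Of the 368 tested genes that held the element, 22.3% rose and 16.8% fell. ISG20 and BST2 are shown because they had the largest rises of the list, with matches in capitals 5′ to 3′ on the gene's strand, at chr15:88638937-88638966 (plus strand) and chr19:17405738-17405767 (minus strand). In BST2 a pair of matches overlaps.
ISG20: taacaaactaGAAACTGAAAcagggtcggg
BST2: tttctggGAAACTGAAACTGAAAacctaat

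Matrix genes differed between families and, among collagens, within them. Integrins are the receptors that bind matrix and signal through SRC and focal adhesion kinase. Of 18 tested, 12 rose and 1 fell, with a median of 0.52. That is 66.7% and 5.56%, against 18.7% and 19.7% of all genes. ITGA1, a collagen-binding chain, was at 534, 512 and 560 with vehicle and 2586, 2344 and 3271 with saracatinib (2.34 ± 0.11, limma adjusted p = 1.97e-08). ITGB8, a chain that activates latent TGF-beta, rose by 1.87 ± 0.09, and ITGA2 and ITGA9 by 1.05 and 1.17. ITGB2, the leukocyte chain, fell from 41.7 to 59.6 to 10.9 to 24.2 (-1.66 ± 0.37). ITGAV, ITGB5 and ITGA4 had log2 fold changes of 0.05, -0.00 and -0.05 and did not pass.

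Of 16 collagens tested, 5 rose and 9 fell, which is 31.2% and 56.2% against 18.7% and 19.7% of all genes. The fibrillar chains COL5A2, COL5A1 and COL1A1 fell by 1.14, 1.38 and 1.69. COL5A2 was at 2921, 3251 and 3030 with vehicle and 1397, 1364 and 1405 with saracatinib (limma adjusted p = 2.87e-09), without overlap. COL6A1 rose from 790 to 950 to 1680 to 1755 normalized counts, COL18A1 by 1.08 on the log2 scale, and COL4A5, a basement membrane chain, by 1.85. Chains of the same collagen type parted, since COL6A3 fell by 1.04, COL4A1 by 0.29 and COL4A2 by 0.25.

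In the list of metalloproteinases and their inhibitors, 11 of 22 rose and 1 fell. MMP1, interstitial collagenase, was at 178, 159 and 152 with vehicle and 1093, 1064 and 1063 with saracatinib (2.72 ± 0.10, limma adjusted p = 3.80e-10). The empty vector level was 96.7 to 113, so saracatinib libraries stood above both other groups. TIMP1, an inhibitor of these enzymes, rose by 1.11 ± 0.06 and MMP14, a membrane-bound collagenase, by 0.82 ± 0.06.

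Of 20 feedback genes of the MAPK pathway, which mutant BRAF drives in A375, 9 rose and 4 fell. These are 45.0% and 20.0% against 18.7% and 19.7% of all genes, so the lower share was near that of all genes. SPRY1, an inhibitor of receptor signalling, went from 76.8, 70.1 and 63.9 to 250, 272 and 249 (1.86 ± 0.14), and DUSP4, a nuclear phosphatase of ERK, from 3622 to 3732 to 7330 to 7697 (1.02 ± 0.04, limma adjusted p = 4.24e-10). DUSP6 rose by 0.26, ETV4 did not pass (0.11) and ETV5 fell by 0.30.

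AP-1 subunits moved in both directions, with 5 of 14 tested higher and 4 lower, which is 35.7% and 28.6% against 18.7% and 19.7% of all genes. FOS was at 151, 186 and 184 with vehicle and 755, 757 and 783 with saracatinib (2.14 ± 0.09, limma adjusted p = 1.56e-09), and the empty vector libraries held 560 to 624. JUNB rose by 0.96 and MAF by 1.89. JUN fell from 739 to 798 to 431 to 508 (-0.70 ± 0.09), FOSL1 by 0.57 and ATF3 by 0.88.

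Of 25 receptor tyrosine kinases tested, 6 rose and 8 fell, which is 24.0% and 32.0% against 18.7% and 19.7% of all genes. Beside AXL, EGFR and the ephrin receptor EPHA2 fell by 0.62 each. ERBB3, the neuregulin receptor, rose from 1145 to 1165 to 1876 to 2094 (0.78 ± 0.05), far below its 6660 to 7208 in the empty vector libraries. NTRK2 rose by 1.80 from a low level of 8.32 to 11.7. Of 21 growth factor ligands tested, 7 were higher and 6 lower, which is 33.3% and 28.6%. The EGFR ligands TGFA and AREG rose by 1.24 and 1.21, and HBEGF, another of them, fell by 0.90. NRG1, a ligand of ERBB3, fell from 492 to 621 to 256 to 303 (-0.98 ± 0.16).

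The TGF-beta and BMP list had 9 of 26 tested higher and 10 lower, which is 34.6% and 38.5% against 18.7% and 19.7% of all genes. ID3, an inhibitor of basic helix-loop-helix factors, went from 499, 491 and 448 to 143, 163 and 155 (-1.64 ± 0.09, limma adjusted p = 1.64e-08). The inhibitory SMADs SMAD6 and SMAD7 fell by 1.49 and 1.38, and ID1 by 0.76, while ID2 (-0.70) did not pass. The coreceptor TGFBR3, the ligand BMP6 and the decoy receptor BAMBI rose by 1.48, 1.17 and 1.04.

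Melanocyte and neural crest genes were mostly higher where called, at 8 of 18 higher and 2 lower (4 with quantile normalization). The 8 and 2 are 44.4% and 11.1%, against 18.7% and 19.7% of all genes. MITF, the lineage's master factor, fell from 1065, 1110 and 1093 to 512, 456 and 568 normalized counts (-1.09 ± 0.11, limma adjusted p = 5.24e-06). SOX10, which activates MITF in melanocytes, rose from 1748, 1837 and 1776 to 2777, 2718 and 2798 (0.63 ± 0.04, limma adjusted p = 9.81e-08). Both had non-overlapping groups in opposite directions. Against the empty vector, the saracatinib level of MITF was above 314 to 434 and that of SOX10 below 7381 to 7726. FOXD3, a neural crest factor, and S100A1 and EDNRB, markers of the lineage, rose by 1.54, 1.49 and 0.99. GPNMB, a glycoprotein of melanosomes and lysosomes, rose from 1642 to 1756 to 5179 to 5363 (1.62 ± 0.05), and PMEL was at 14.2 to 20.9 with vehicle and 12.6 to 26.5 with saracatinib and did not pass.

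VGF, a neuropeptide precursor that PCSK1 can cleave, was at 579, 676 and 595 with vehicle and 3067, 3470 and 3781 with saracatinib (2.48 ± 0.08, limma adjusted p = 2.02e-10). With PCSK1 and the carboxypeptidase CPE (1.01 ± 0.16), 5 of 7 tested genes of prohormone processing rose and 0 fell. Of 22 cytokine and NF-kB genes, 8 rose and 2 fell, which is 36.4% and 9.09% against 18.7% and 19.7% of all genes. The count of higher genes was 5 without saracatinib library 3. CXCL2 and CXCL3, among the 8, were low, at 15.8 to 34.3 and 7.99 to 28.5 in the VAV1 libraries. Both lost their calls in several fits that left out a library.

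IL24, a cytokine of the IL10 family, went from 2077, 2046 and 2064 to 10760, 11050 and 10740 (2.39 ± 0.06, limma adjusted p = 4.60e-11), and IL1B, an inflammatory cytokine, from 42.4 to 56.1 to 260 to 281 (2.40 ± 0.21). Both were lowest in the empty vector libraries, at 416 to 503 and 9.43 to 14.7. CXCL1, a neutrophil chemokine, fell by 0.88, and CXCL8 (0.21), IL6 (0.71) and the feedback gene NFKBIA (0.03) did not pass.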

How the data were processed

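Total RNA was sequenced from Illumina TruSeq libraries, per the labels' protocols. Each library has its own file of gene symbols, in which the authors deposited the log2 of a normalized count plus 1. The submitters' processing notes name kallisto, DESeq2 and GRCh38, and versions, settings and the annotation release are not given in the sources used here. The values did not give back whole reads, so no test on counts and no counting interval is given. Library totals are after normalization and do not show depth.

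The comparison was fitted with limma 3.58.1 in R 4.3.3 on the deposited log2 values of 9 libraries, with 1 mean per group and robust empirical Bayes moderation along a mean-variance trend. The test was two-sided with Benjamini-Hochberg adjustment over 14034 genes at 0.05. An exact permutation test of 3 against 3 cannot go below p = 0.1, so none was used. The p-values measure the spread between libraries, and the labels do not say whether triplicates came from separate cultures.

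Named were the 15 highest and 15 lowest fold changes among called genes with a mean of at least 50 normalized counts in the higher group and libraries that did not overlap, VAV1, RAC1, SRC family kinases, the most abundant called genes and members of gene lists. Clone and locus names were left out, and some genes are not reported here. The genes and lists were chosen with earlier results of these data known, and lists are described by counts and medians with no set test. Motifs were counted in lists that hold known targets, so motif shares of lists partly reflect how the lists were chosen. Coordinates are from GENCODE 29, in which 95.2% of tested symbols occur once. Promoter sequences are RefSeq's (GRCh38.p14), matched by symbol or older symbol for 10846 tested genes, of which 3204 have several starts, and a gene with several starts has more chances to hold a motif. A stretch that overlaps an annotated exon is shown as at most 30 bases.

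Alternatives were 3 other scalings, quantile normalization, other filters, pseudocounts of 4 and 16, the 6 VAV1 libraries alone, a replicate block, no trend, a 1.5-fold test and leaving out each library. Residuals of libraries with the same number in different groups correlated at -0.0541 to 0.0272. These values show no pairing by number, but they cannot exclude it.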

Additional observations from a re-analysis of the deposited data

How the results depend on the processing

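The 5385 calls (2624 higher, 2761 lower) became 5344 (2689 and 2655) with recomputed median-of-ratios scaling, 5340 (2780 and 2560) with upper-quartile scaling, 5345 (2787 and 2558) with equal totals and 5455 (2581 and 2874) with quantile normalization. No filter gave 5319 calls, a filter at 50 gave 5181, pseudocounts of 4 and 16 gave 5425 and 5462, the 6 VAV1 libraries alone gave 5440 and a fit without trend and robust estimation 4934. A test against a 1.5-fold difference gave 491 calls, 367 higher and 124 lower, since it asks for a larger change. With a replicate block, which the residual correlations do not call for, 5086 genes passed (2486 higher, 2600 lower). Leaving out each library gave 4596 to 5473 calls, 2209 to 2664 higher and 2322 to 2809 lower. Quantile normalization moved 3 abundant genes to the other sign or to 0: DNAJA1 to 0.14 (limma adjusted p = 0.0368), ENO1 to -0.21 (limma adjusted p = 0.0187) and EEF1A1, called at 0.23, to 0.0, and the cause was not tested. The 6 higher receptor tyrosine kinases became 3 with a filter at 50, which tests fewer genes. With 3 libraries a group, small changes of low genes can be missed.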

Other observations

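Of 16 heat shock genes under HSF1, 12 fell and 1 rose, with a median log2 fold change of -0.25. These falls were small, and their count was 8 to 11 with the other scalings and quantile normalization. It was 10 to 12 when single libraries were left out and 0 in the 1.5-fold test. HSP90AA1, a cytosolic chaperone, was at 61470, 56500 and 61100 normalized counts with vehicle and 40070, 40840 and 41010 with saracatinib (-0.55 ± 0.04, limma adjusted p = 3.28e-07). Chaperones of the endoplasmic reticulum went the other way, with 10 of 20 higher and 1 lower, led by DNAJB9 and EDEM1, which rose by 0.95 and 0.64. Of 14 FOXO target genes, 8 rose and 1 fell, which is 57.1% and 7.14% against 18.7% and 19.7% of all genes. The ubiquitin ligase gene FBXO32 was at 114, 136 and 125 with vehicle and 292, 456 and 395 with saracatinib (1.58 ± 0.17). KLHL24 rose as well (1.28 ± 0.12). BMF, a BH3-only cell death gene, rose from 14.8 to 21.0 to 54.0 to 85.5 (1.76 ± 0.26), and BCL2L1, which encodes BCL-XL, fell by 0.58, while BCL2L11, which encodes BIM, did not pass (0.17). Glycolysis genes had 5 of 24 higher and 10 lower, which is 20.8% and 41.7% against 18.7% and 19.7% of all genes, and the glucose transporter genes parted, SLC2A3 rising by 1.53 and SLC2A1 falling by 0.42.

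FTH1, the ferritin heavy chain, was among the most abundant genes that rose, at 57590, 52170 and 52850 with vehicle and 92050, 100700 and 94920 with saracatinib (0.82 ± 0.05, limma adjusted p = 4.39e-08). FTL, the light chain, was at 22500 to 24940 and 24720 to 25780 and did not pass. The empty vector libraries held 22820 to 25540 for FTH1, so its level was lowest there and highest with saracatinib.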
